A study of Mus musculus with 15 samples.

Results

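The genes described here are 8 Toll-like receptors (Tlr1, Tlr2, Tlr3, Tlr4, Tlr6, Tlr7, Tlr9 and Tlr13), the co-receptor Cd14 and the adaptor Myd88. They were taken by symbol from a table of 18931 genes measured in the brains of Kunming mice, an outbred strain, by mRNA sequencing. All 10 were found and all 10 passed the filter on low counts, which left 15125 genes for testing. The libraries were 15, with 3 in each of 5 groups that the labels call JU, JA, UA, vehicle and sham. Every title, sham included, also names MCAO mice; MCAO is the usual abbreviation of middle cerebral artery occlusion, a rodent model of ischemic stroke. The study's title is about jasminoidin, a plant iridoid glucoside, and ursodeoxycholic acid, a bile acid, given together against ischemic brain injury. What JA, UA and JU stand for is not written out in the labels, and neither is whether JU is the combination. The agents' doses, the length of the occlusion, the time of sampling, the animals' age and sex, and the part of the brain taken were not found in the labels.

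Toll-like receptors are membrane proteins that recognise molecular patterns of microbes and of damaged cells. At the cell surface TLR2 pairs with TLR1 or TLR6 to bind lipoproteins, and TLR4 binds lipopolysaccharide with help from CD14, which hands the ligand over. In endosomes TLR3 binds RNA duplexes, TLR7 single-stranded RNA, TLR9 DNA rich in unmethylated CpG, and TLR13, which mice have and humans lack, bacterial ribosomal RNA. All of these except TLR3 signal through MYD88 to NF-kB, and TLR3 uses TRIF instead, which TLR4 also uses from endosomes. In the brain microglia carry most of these receptors, while TLR3 is also found on astrocytes and neurons, and receptors such as TLR2 and TLR4 are widely studied after stroke.

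1 library stood apart. JU replicate 1 had the highest level of 9 of the 10 genes among the 15 libraries, and its counts set against those of JU replicates 2 and 3 gave 323 and 270 as chi-square per degree of freedom, where pairs within the other groups gave 5.02 to 62.8. Because all 15 libraries share 1 estimate of the spread, it enters the error of every comparison, and the counts and the values of the 10 genes are also given without it. No gene was targeted in this design, so its label could not be checked against a gene. The libraries held 18346180 to 20447465 counts, of which each of the 10 genes had 15 to 2951. Levels of a gene are compared between libraries as CPM, which is counts scaled to a common library size, and a floor of 3 counts equals 0.147 to 0.164 CPM. Markers of neurons, astrocytes and oligodendrocytes were present in all libraries, with summed levels of 3005 to 8611, 3393 to 4634 and 5951 to 8875 CPM. Whether libraries of 1 group are different animals is not stated, so a p-value measures only the spread between these samples. A gene was called where edgeR's quasi-likelihood test gave a Benjamini-Hochberg adjusted p under 0.05 over all genes tested.

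The start regions of 4 of the genes are printed because their levels ran apart: Tlr2 and Tlr13 had the largest differences between vehicle and sham, Myd88 is the shared adaptor, and Tlr3 differed least. Each run is 300 bases of the gene's own strand, 250 before and 50 after the start, from RefSeq on GRCm38.p6, and capitals mark matches to a motif searched on either strand. The motifs were an NF-kB motif of 10 letters, the PU.1-type letters GAGGAA and the interferon-type letters GAAA, 2 bases of any kind and GAAA. The regions are chr3:83841559-83841858 and chr8:45410331-45410630 on the minus strand, chrX:106143025-106143324 on the plus strand and chr9:119339969-119340268 on the minus strand.
Tlr2: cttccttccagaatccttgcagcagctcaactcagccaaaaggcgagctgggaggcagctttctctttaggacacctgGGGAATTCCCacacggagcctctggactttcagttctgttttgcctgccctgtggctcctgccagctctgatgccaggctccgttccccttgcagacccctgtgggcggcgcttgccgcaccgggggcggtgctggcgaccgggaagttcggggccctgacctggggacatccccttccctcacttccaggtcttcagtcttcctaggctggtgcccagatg
Tlr13: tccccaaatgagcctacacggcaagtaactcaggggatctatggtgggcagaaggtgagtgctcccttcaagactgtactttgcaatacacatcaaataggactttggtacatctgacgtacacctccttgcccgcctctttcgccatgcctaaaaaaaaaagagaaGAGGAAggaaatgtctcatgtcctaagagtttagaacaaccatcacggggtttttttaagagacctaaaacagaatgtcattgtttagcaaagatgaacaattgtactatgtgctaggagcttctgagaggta
Myd88: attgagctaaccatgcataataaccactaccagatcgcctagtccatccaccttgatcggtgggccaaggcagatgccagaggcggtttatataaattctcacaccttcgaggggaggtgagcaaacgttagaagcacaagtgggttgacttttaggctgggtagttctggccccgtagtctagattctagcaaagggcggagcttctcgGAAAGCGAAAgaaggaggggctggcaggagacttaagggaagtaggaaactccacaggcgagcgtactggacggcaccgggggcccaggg
Tlr3: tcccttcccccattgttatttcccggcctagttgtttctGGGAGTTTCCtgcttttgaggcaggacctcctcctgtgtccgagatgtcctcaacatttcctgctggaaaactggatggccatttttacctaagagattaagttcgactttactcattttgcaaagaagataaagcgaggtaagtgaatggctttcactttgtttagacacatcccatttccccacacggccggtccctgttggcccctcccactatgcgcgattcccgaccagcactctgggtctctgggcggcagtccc

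The Tlr2 region held 1 NF-kB match, GGGAATTCCC, which began 172 bases before the start. Tlr3 also held 1 NF-kB match, GGGAGTTTCC, 211 bases before its start. Tlr13 held 1 GAGGAA at 83 bases before the start, and Myd88 held 1 interferon-type match, GAAAGCGAAA, at 40 bases before the start. Entries were found for 7 of the 10 genes. Among the others, Tlr1 held 1 GAGGAA, Tlr6 held a pair of interferon-type matches that overlap each other, and Tlr9 held GAGGAA on each strand. Tlr1 and Tlr6 each had 2 start sites in the table, and those matches were at the first, while the second held 0 matches to the 3 motifs in either gene. Over all 32851 promoter entries of the table, 5.8% held the NF-kB motif, 28.3% held GAGGAA and 3.44% held the interferon-type letters, and of the 27025 genes 6.55%, 31.3% and 3.99% held these in at least 1 entry. The matches describe letters only, and binding was not measured.

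Vehicle brains were set against sham brains to ask how the receptors stand after occlusion without a test agent. All 10 genes had higher means in vehicle, and for 9 of them every vehicle library lay above every sham library, with Tlr3 as the exception. Across all genes tested, 24.5% lay wholly higher and 24.7% wholly lower in vehicle. With all 15 libraries in the fit 0 of the 10 were called, against 5.02% of all genes (0.787% called higher), and without JU replicate 1 8 were called higher, against 33.9% of all genes (17% called higher). The 10 log2 fold changes had a median of 1.94, against 0.0048 for all genes, and 7 of the 10 had an unadjusted p under 0.05, as did 29.3% of all genes. DESeq2 called 5 of them, against 16.6% of all genes, and limma voom 0, against 4.53%. With only the vehicle and sham libraries in the fit 8 were called, against 25.5% of all genes. With an offset for transcript GC content 0 were called, against 0% of all genes, and 8 with that offset and without JU replicate 1, against 25%. Without JU replicate 2 3 were called, against 11%.

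Among the surface receptors, Tlr2, the partner shared by TLR1 and TLR6, differed most. Its levels were 52.7, 2.35 and 9.37 CPM in JU, 7.65, 2.52 and 1.99 in JA, 2.71, 9.63 and 2.25 in UA, 9.52, 24.6 and 14.5 in vehicle and 2.05, 2.45 and 1.15 in sham, for replicates 1, 2 and 3 in turn. The lowest vehicle library was above the highest sham library, and the 3 sham libraries were within 1.15 to 2.45 CPM. The mean was 16.2 ± 7.7 CPM in vehicle and 1.88 ± 0.667 CPM in sham (SD, n = 3 each), a log2 fold change of 3.10 ± 1.01 on the log2 scale (SE), adjusted p = 0.0837, and 3.09 ± 0.77, adjusted p = 0.0119, without JU replicate 1. Tlr1, a TLR2 partner for triacylated lipoproteins, had 26.1, 4.7 and 9.22 CPM in JU, 9.42, 2.93 and 5.08 in JA, 3.87, 7.55 and 5.48 in UA, 9.01, 16.9 and 6.83 in vehicle and 5.84, 5.26 and 6.26 in sham. Its vehicle libraries only just cleared the sham libraries, at 6.83 against 6.26 CPM for the nearest pair. The log2 fold change of Tlr1 was 0.92 ± 0.58 on the log2 scale (SE), adjusted p = 0.301, and 0.91 ± 0.44, adjusted p = 0.127, without JU replicate 1, so Tlr1 was not called either way. Tlr6, the TLR2 partner for diacylated lipoproteins, had 10.2, 1.75 and 3.55 CPM in JU, 3.88, 2.0 and 1.38 in JA, 3.6, 3.85 and 2.2 in UA, 4.76, 6.67 and 4.25 in vehicle and 2.16, 1.88 and 1.98 in sham. All vehicle libraries were above all sham libraries, and the sham values lay close together. In vehicle against sham Tlr6 had 1.38 ± 0.55 on the log2 scale (SE), adjusted p = 0.128, and 1.37 ± 0.38, adjusted p = 0.0151, without JU replicate 1. Tlr1 and Tlr6 are neighbours on chromosome 5 (GRCm38, 64924679 to 64933563 and 64952031 to 64960097, both on the minus strand). They share sequence. Of the 50-base windows of the longest Tlr1 transcript 15.3% recur in Tlr6, and of those of the longest Tlr6 transcript 12.6% recur in Tlr1 or Ctsq. Reads from these stretches could thus have been given to either gene.

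Tlr4, the lipopolysaccharide receptor, had 34.1, 1.91 and 4.78 CPM in JU, 7.75, 2.31 and 2.65 in JA, 2.77, 4.29 and 3.23 in UA, 5.73, 14.1 and 6.74 in vehicle and 2.79, 2.45 and 2.5 in sham. Vehicle libraries were 5.73 CPM or more and sham libraries 2.79 CPM or less. The fitted difference was 1.78 ± 0.84 on the log2 scale (SE), adjusted p = 0.18, and 1.77 ± 0.50, adjusted p = 0.0176, without JU replicate 1. Cd14, the anchored co-receptor that loads lipopolysaccharide onto TLR4 and also serves TLR2, had 86.8, 3.99 and 13.4 CPM in JU, 12.9, 4.06 and 2.27 in JA, 3.65, 13.1 and 6.4 in UA, 15.8, 43.8 and 20.3 in vehicle and 3.58, 3.54 and 3.75 in sham. The sham libraries were within 3.54 to 3.75 CPM, and the lowest vehicle library was 15.8 CPM. The Cd14 log2 fold change was 2.87 ± 0.99 on the log2 scale (SE), adjusted p = 0.0931, and 2.87 ± 0.73, adjusted p = 0.0136, without JU replicate 1. Cd14 was thus 7.33-fold higher in vehicle in the fit, next to 8.59-fold for Tlr2 and 3.43-fold for Tlr4.

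**Figure D1:**
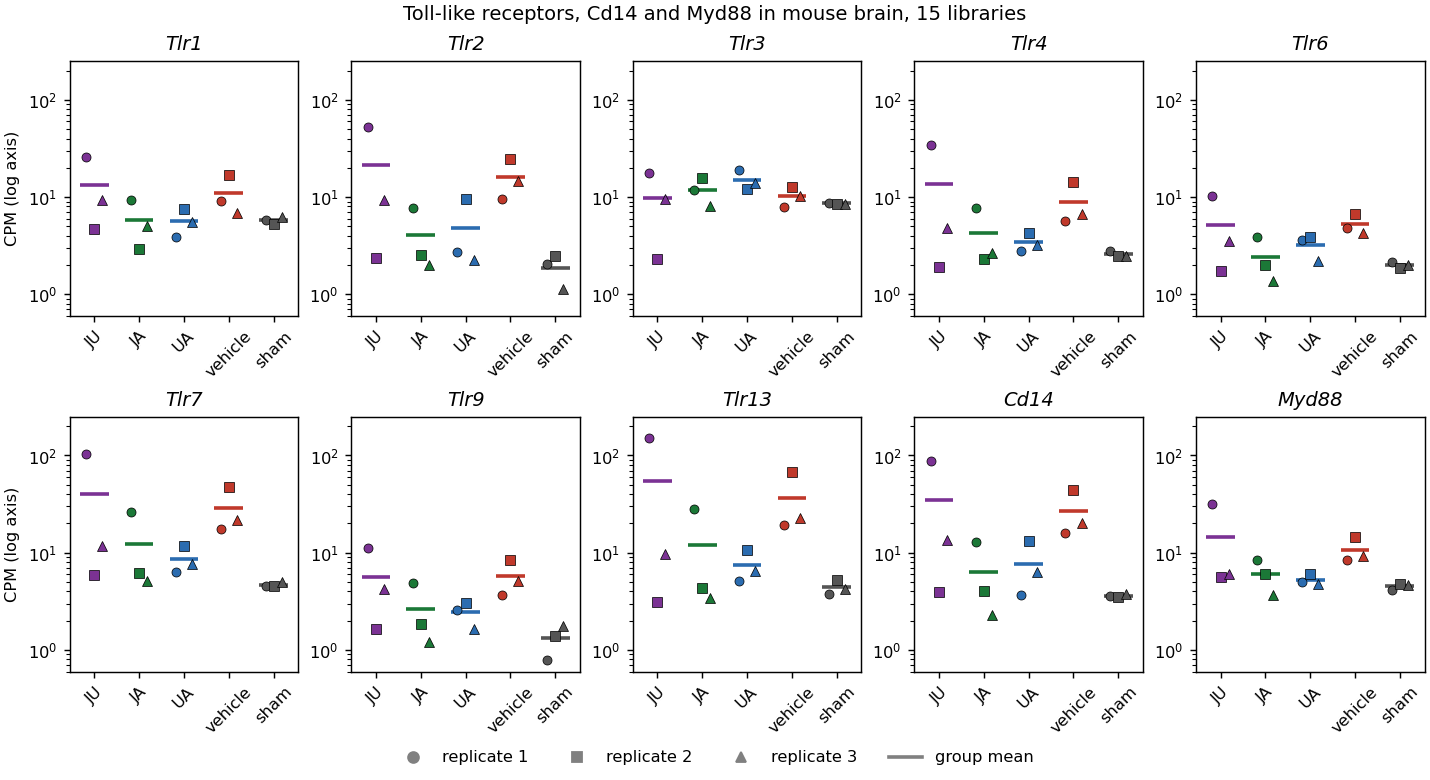
CPM of each gene on a log axis, with groups from left to right JU, JA, UA, vehicle and sham, 1 symbol per library and a line at the group mean. JU replicate 1 is the highest symbol of the JU group in every panel, for Tlr13 at 152 CPM, and the sham symbols lie close together for most genes.

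Among the endosomal receptors, Tlr13, the sensor of bacterial ribosomal RNA, had the highest vehicle level in CPM and the widest span. Its levels were 152, 3.12 and 9.66 CPM in JU, 28.4, 4.37 and 3.43 in JA, 5.14, 10.6 and 6.56 in UA, 19.2, 67.1 and 22.6 in vehicle and 3.79, 5.21 and 4.28 in sham. Vehicle replicate 2 stood well above the other two, and all vehicle libraries were above all sham libraries. Its log2 fold change was 3.03 ± 1.23 on the log2 scale (SE), adjusted p = 0.133, and 3.03 ± 0.86, adjusted p = 0.0217, without JU replicate 1. Tlr7, the sensor of single-stranded RNA, had 103, 5.96 and 11.7 CPM in JU, 26, 6.22 and 5.08 in JA, 6.36, 11.8 and 7.68 in UA, 17.5, 47.8 and 21.5 in vehicle and 4.58, 4.53 and 5.01 in sham. The sham libraries were within 4.53 to 5.01 CPM and the vehicle libraries began at 17.5 CPM. Tlr7 had a difference of 2.62 ± 0.95 on the log2 scale (SE), adjusted p = 0.105, and 2.61 ± 0.64, adjusted p = 0.0111, without JU replicate 1. Tlr9, the CpG DNA sensor, was the member with the fewest sham counts, 15 to 34 per library. It had 11.1, 1.64 and 4.19 CPM in JU, 4.88, 1.85 and 1.22 in JA, 2.6, 3.06 and 1.64 in UA, 3.63, 8.34 and 5.16 in vehicle and 0.789, 1.41 and 1.77 in sham. The groups were apart, although the sham libraries of Tlr9 ranged from 0.789 to 1.77 CPM. The Tlr9 difference was 2.10 ± 0.68 on the log2 scale (SE), adjusted p = 0.0837, and 2.10 ± 0.55, adjusted p = 0.0121, without JU replicate 1.

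Tlr3, the sensor of RNA duplexes and the receptor here that does not use MYD88, was the exception. It had 17.6, 2.29 and 9.47 CPM in JU, 11.8, 15.7 and 8.18 in JA, 18.9, 12.1 and 14 in UA, 7.88, 12.6 and 10.2 in vehicle and 8.74, 8.54 and 8.5 in sham. Vehicle and sham overlapped, since vehicle replicate 1 lay below all sham libraries. Its log2 fold change was 0.25 ± 0.50 on the log2 scale (SE), adjusted p = 0.76, and 0.24 ± 0.39, adjusted p = 0.665, without JU replicate 1. The highest Tlr3 level of the 15 libraries was in UA replicate 1, and the UA and vehicle libraries overlapped through UA replicate 2 at 12.1 CPM and vehicle replicate 2 at 12.6 CPM. An antisense gene, Gm45542, covers 381 exonic bases of Tlr3 on the other strand and is not among the genes of the table, and no source used here states whether the counting used strand.

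Myd88, the adaptor that joins the receptors to the IRAK kinases, had 31.4, 5.68 and 6.12 CPM in JU, 8.51, 6.01 and 3.7 in JA, 4.98, 6.07 and 4.71 in UA, 8.39, 14.4 and 9.18 in vehicle and 4.11, 4.74 and 4.69 in sham. The vehicle libraries were above all sham libraries, with 8.39 against 4.74 CPM for the nearest pair. Its log2 fold change was 1.24 ± 0.56 on the log2 scale (SE), adjusted p = 0.166, and 1.23 ± 0.27, adjusted p = 0.00575, without JU replicate 1. The smallest adjusted p of the 10 genes without JU replicate 1 was that of Myd88, although its difference was among the smaller. Myd88 shares 290 exonic bases with Acaa1a, a peroxisomal thiolase gene on the opposite strand. Acaa1a had 23.6, 29.3 and 22.4 CPM in vehicle and 19.9, 17.8 and 23.3 CPM in sham, so these groups overlapped for Acaa1a. It had 36.8, 31.1 and 26.5 CPM in JU, 39.8, 41.7 and 19.1 in JA and 32.1, 18.5 and 19.5 in UA. Whether reads of Acaa1a entered the Myd88 counts was not tested.

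JA was set against vehicle to ask whether the agent changed the levels after occlusion. 9 of the 10 genes had lower means in JA on the log2 scale, and Tlr3 was the exception. For Tlr2, Tlr6 and Cd14 every JA library lay below every vehicle library, and 15.7% of all genes tested lay wholly lower in JA. By edgeR's quasi-likelihood test 0 of the 10 were called, against 1.56% of all genes, and 0 of the 10 had an unadjusted p under 0.05, against 18.8%. Without JU replicate 1 the count was also 0, against 19% of all genes. DESeq2 called 0 as well, against 6.3% of all genes, and limma voom 0, against 1.38%. The median log2 fold change was -1.11, against -0.0071 for all genes. Cd14 had the largest, -2.05 ± 0.95 (SE), adjusted p = 0.266, and -2.05 ± 0.70, adjusted p = 0.0633, without JU replicate 1. Tlr2 had -2.00 ± 0.95, adjusted p = 0.276, and -1.99 ± 0.72, adjusted p = 0.0738, without that library. Tlr6 had -1.11 ± 0.54, adjusted p = 0.286, and -1.10 ± 0.37, adjusted p = 0.0545, without it. The JA libraries were not alike. JA replicate 1 had 26 CPM of Tlr7 and 28.4 CPM of Tlr13, within the span of the vehicle libraries, while JA replicates 2 and 3 had 6.22 and 5.08 CPM of Tlr7 and 4.37 and 3.43 CPM of Tlr13, near the sham libraries.

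UA was set against vehicle in the same way. For 7 genes (Tlr4, Tlr6, Tlr7, Tlr9, Tlr13, Cd14 and Myd88) every UA library lay below every vehicle library, and 22.2% of all genes tested lay wholly lower in UA. By edgeR's quasi-likelihood test 0 of the 10 were called, against 3.47% of all genes, and 0 had an unadjusted p under 0.05, against 24.3%. Without JU replicate 1 Myd88 was called lower, at -1.01 ± 0.27 on the log2 scale (SE) and an adjusted p of 0.0174, against 28.2% of all genes called. With only the UA and vehicle libraries in the fit 3 of the 10 were called, against 14.6% of all genes, and with the GC offset and without JU replicate 1 2 were called, against 11.8%. DESeq2 called 0, against 10.1%, and limma voom 0, against 3.34%. The median log2 fold change was -1.30, against -0.0136 for all genes. Tlr13 had the largest, -2.29 ± 1.18, adjusted p = 0.243, and -2.28 ± 0.82, adjusted p = 0.0615, without JU replicate 1. Cd14 followed at -1.78 ± 0.94, adjusted p = 0.249, and -1.77 ± 0.69, adjusted p = 0.0779, without that library. Tlr2 had -1.73 ± 0.94, adjusted p = 0.259, and -1.72 ± 0.71, adjusted p = 0.0923, without it, and its groups overlapped because UA replicate 2 had 9.63 CPM and vehicle replicate 1 had 9.52 CPM. Tlr3 was the gene with a higher mean in UA, 0.56 ± 0.50, adjusted p = 0.486, and 0.56 ± 0.39, adjusted p = 0.294, without JU replicate 1.

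JU was set against vehicle, and all 10 genes overlapped between these groups, where 2.35% of all genes tested lay wholly higher and 1.88% wholly lower in JU. By edgeR's quasi-likelihood test 0 of the 10 were called, against 0% of all genes, of which 300 (1.98%) had an unadjusted p under 0.05, and none of the 10 did. DESeq2 called 0 of the 10, against 0.0132% of all genes, and limma voom 0, against 0%. The adjusted p was 1 for every gene, and the median log2 fold change was 0.395, against 0.0309 for all genes. The 3 JU libraries spanned most of the range seen in the study. For Tlr13 they had 152, 3.12 and 9.66 CPM, against 19.2, 67.1 and 22.6 CPM in vehicle, so that 1 was above all vehicle libraries and the other two below them. The same order held for Cd14, with 86.8, 3.99 and 13.4 CPM in JU against 15.8, 43.8 and 20.3 CPM in vehicle. The log2 fold change of Tlr13 was 0.60 ± 1.11 (SE) with all libraries and -2.49 ± 0.97, adjusted p = 0.195, without JU replicate 1. Without that library the median of the 10 was -1.18, against -0.0043 for all genes, and 0 were called, against 0.00656% of all genes.

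Between the agents, 0 of the 10 genes were called in JU against JA (0% of all genes) or in JU against UA (1.08% of all genes) by edgeR's quasi-likelihood test. DESeq2 called 0 of the 10 in each, against 4.19% of all genes in JU against JA and 10.4% in JU against UA, and limma voom 0 in each, against 0% and 0.569%. An unadjusted p under 0.05 was found for 3 of the 10 in JU against JA (20.3% of all genes) and for 6 of the 10 in JU against UA (27.3% of all genes). All 10 overlapped in both comparisons. Of all genes, 6.39% lay wholly higher and 10.6% wholly lower in JU against JA, and 9.77% wholly higher and 13.9% wholly lower in JU against UA. The median log2 fold change was 1.46 in JU against JA and 1.72 in JU against UA, and without JU replicate 1 it was 0.0452 and 0.103. Without that library 0 of the 10 were called in JU against JA, with 0% of all genes, and 0 in JU against UA, with 0.623% of all genes. Without JU replicate 2, the lowest JU library for all 10 genes, 7 of the 10 were called higher in JU against UA, where 20% of all genes were called. Both comparisons share the JU libraries, and the comparisons of each agent with vehicle share the vehicle libraries.

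**Figure D2:**
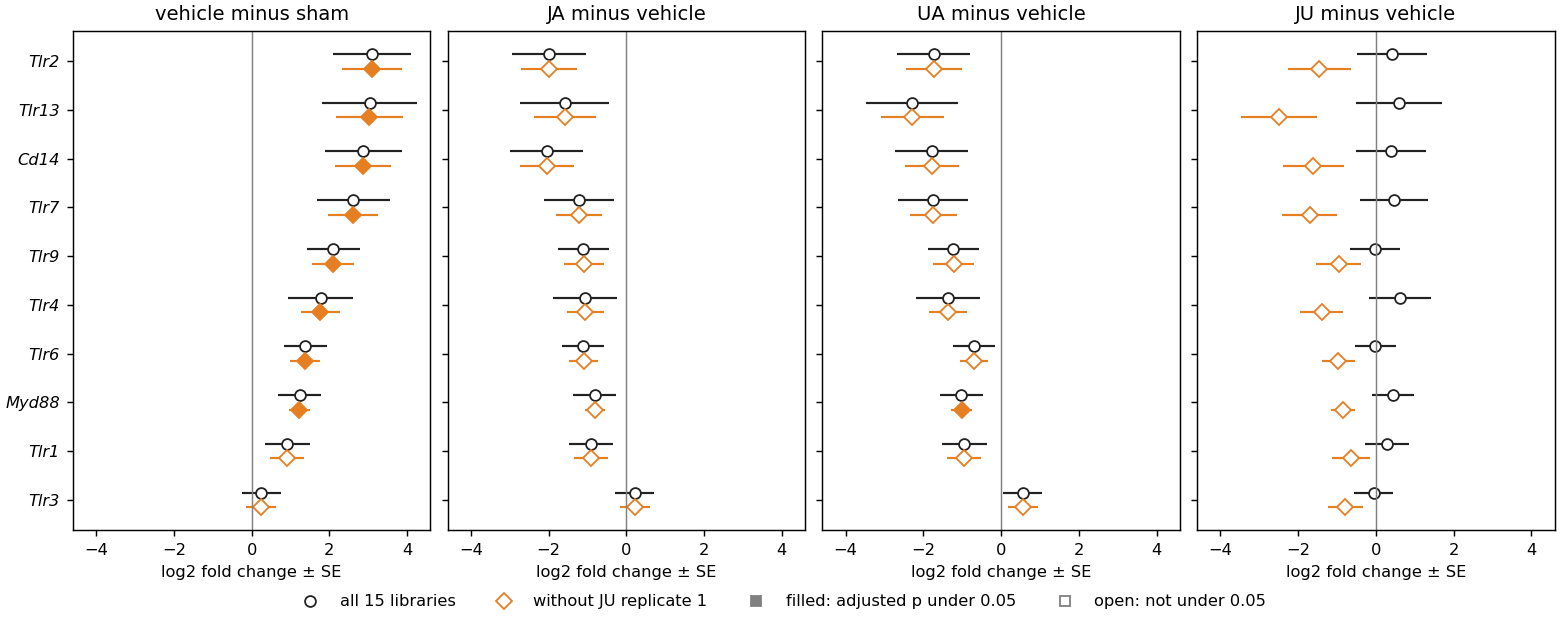
Log2 fold change ± SE of each gene in 4 comparisons, with all 15 libraries (circles) and without JU replicate 1 (diamonds), filled where the adjusted p was under 0.05. In vehicle against sham 8 diamonds are filled and no circle is, and in JU against vehicle the Tlr13 value is 0.60 with all libraries and -2.49 without JU replicate 1.

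Set beside the sham mean, the libraries lay at different levels within every occluded group. JU replicate 1 stood 5.1 log2 units above the sham mean for Tlr13, 4.8 for Tlr2 and 4.5 for Cd14. Vehicle replicate 2 was the second highest library for 9 of the 10 genes. JU replicate 2 was below the sham mean for Tlr4, Tlr6, Tlr13, Tlr1 and Tlr3, and it had the lowest level of 3 of the genes among the 15 libraries, as did JA replicate 3. The sham libraries lay between -0.61 and 0.46 log2 units of their mean over all 10 genes.

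**Figure D3:**
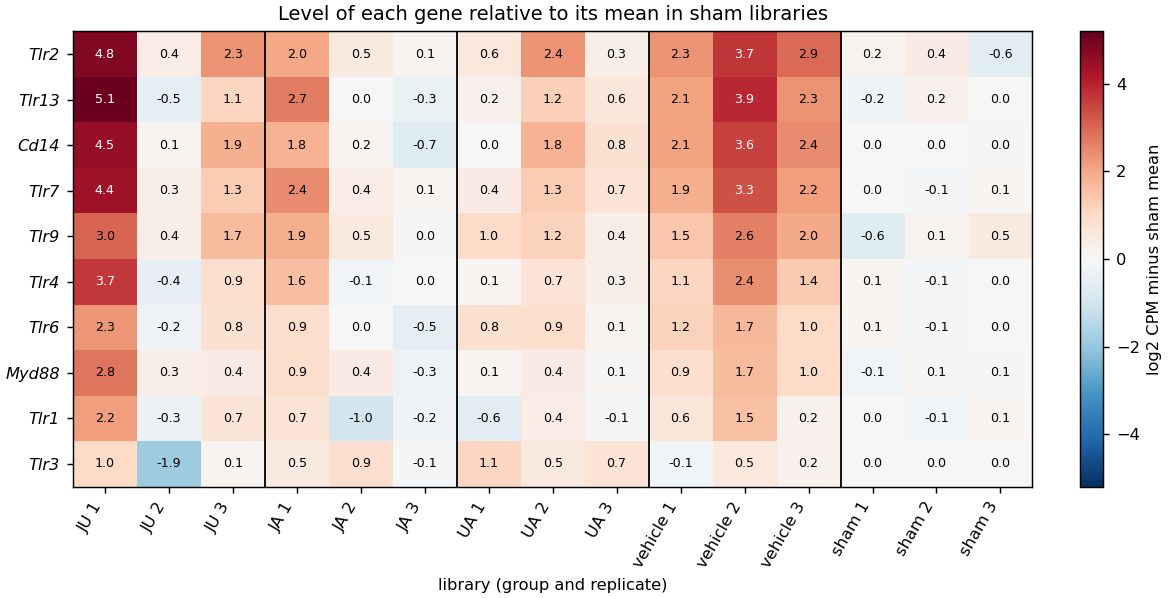
Log2 CPM of each gene (down) in each library (across) minus the mean of the 3 sham libraries, printed in each cell and coloured red above and blue below sham. JU replicate 1 holds the deepest red and vehicle replicate 2 follows, while the Tlr3 line runs from -1.9 in JU replicate 2 to 1.1 in UA replicate 1.

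The order of the genes by level was read from the authors' FPKM, which divides by transcript length. In vehicle, Cd14 was highest with a mean of 16.5 FPKM, then Tlr13 with 9.31, Myd88 with 5.65, Tlr7 with 5.39, Tlr2 with 5.26, Tlr1 with 3.58, Tlr3 with 2.08, Tlr9 with 1.69, Tlr6 with 1.2 and Tlr4 with 1.08 FPKM. Every neighbouring pair in that order overlapped between libraries. The mean of Cd14 was also the highest in JU with 21.1 FPKM, in JA with 3.88 and in UA with 4.61 FPKM, where it was followed by Tlr13 with 13.8 FPKM in JU, Myd88 with 3.13 in JA and Tlr3 with 2.94 in UA, and all neighbours overlapped in these groups too. In sham, Myd88 was highest with a mean of 2.31 FPKM, then Cd14 with 2.16, Tlr1 with 1.83, Tlr3 with 1.69, Tlr13 with 1.09, Tlr7 with 0.844, Tlr2 with 0.588, Tlr6 with 0.442, Tlr9 with 0.378 and Tlr4 with 0.304 FPKM. In sham the neighbours Cd14 and Tlr1, Tlr3 and Tlr13, Tlr13 and Tlr7, and Tlr7 and Tlr2 did not overlap, and the others did. Tlr4 was lowest by this measure in both groups, while Tlr1 and Tlr3 stood above Tlr13, Tlr7 and Tlr2 in sham and below them in vehicle.

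Microglia carry most of these receptors in brain, with TLR3 also on astrocytes and neurons, and 12 markers of homeostatic microglia were measured beside them. Their summed level was 657 to 3513 CPM in JU, 586 to 1355 in JA, 700.1 to 1061 in UA, 1482 to 3016 in vehicle and 536 to 594 in sham. All 12 had higher means in vehicle than in sham. With all libraries 6 were called higher, against 0.787% of all genes, and without JU replicate 1 12 were, against 17%. In brain tissue more cells of a type and more RNA per cell cannot be told apart. The list's mean log2 level stood 1.99, 0.189 and 1.40 above the sham mean in JU, 1.04, 0.123 and 0.039 in JA, 0.334, 0.660 and 0.250 in UA, and 1.13, 2.0 and 1.74 in vehicle. The libraries with high marker levels (JU replicates 1 and 3, JA replicate 1 and the vehicle libraries) had median ranks of 1 to 6 among the 15 libraries over the 10 genes, and UA replicate 2 had a median rank of 6 as well.

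Each gene's log2 level was then taken minus the mean log2 level of the 12 markers, again relative to sham. In vehicle, 4 genes lay above sham on this measure with no overlap: Tlr2 by 1.37 ± 0.29, Tlr13 by 1.16 ± 0.67, Cd14 by 1.08 ± 0.44 and Tlr7 by 0.83 ± 0.45 (SD, n = 3). Of all genes tested, 1.9% lay wholly above and 89.4% wholly below on the same measure, since the markers themselves were higher in vehicle. Tlr9, Tlr4 and Tlr6 overlapped with sham, at 0.39 ± 0.22, 0.01 ± 0.40 and -0.31 ± 0.38. Myd88 lay below by -0.44 ± 0.25, Tlr1 by -0.82 ± 0.59 and Tlr3 by -1.40 ± 0.13. In JU replicate 1 the measure reached 3.09 for Tlr13, 2.80 for Tlr2, 2.55 for Cd14 and 2.43 for Tlr7, and the highest values in vehicle were 1.91, 1.71, 1.56 and 1.32. The vehicle and JU groups overlapped in these 4 genes. No p-value was computed for this measure. It cannot tell a change of a gene or of the markers per cell from a change in the mix of cells.

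**Figure D4:**
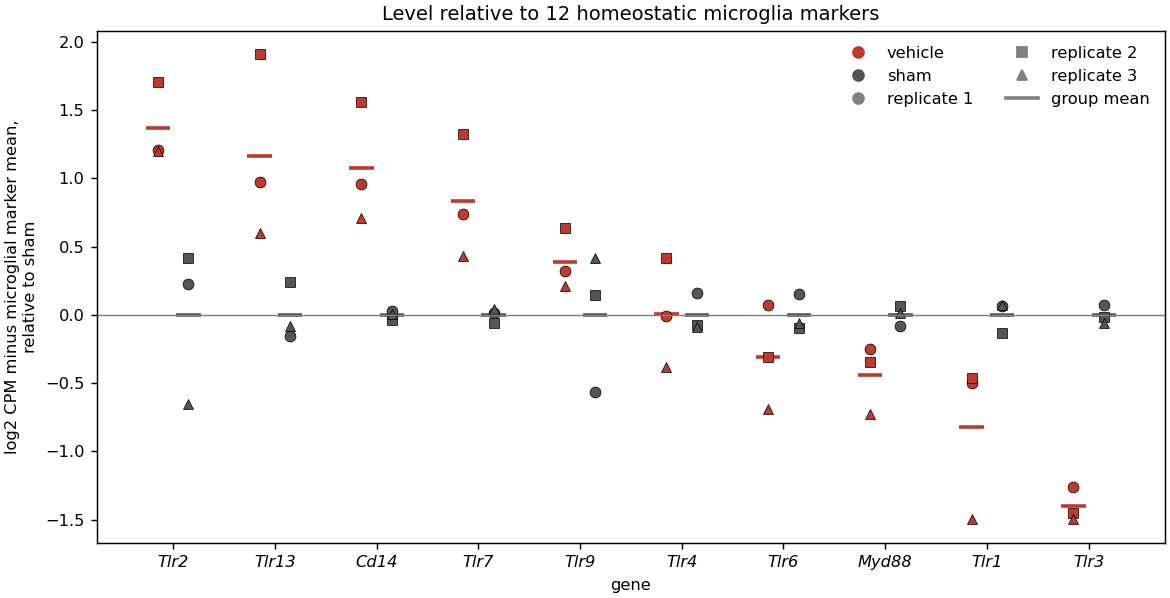
Log2 CPM of each gene minus the mean log2 CPM of 12 homeostatic microglia markers, relative to the sham mean, in vehicle (red) and sham (grey) libraries, with a line at each group mean. Tlr2, Tlr13, Cd14 and Tlr7 lie above all sham libraries and Myd88, Tlr1 and Tlr3 below them.

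Markers of other cells were measured too. The 10 markers of infiltrating monocytes and border macrophages summed to 17.3, 20.5 and 268 CPM in JU, 18.3 to 44.8 in JA, 16.7 to 26.6 in UA, 30.3 to 114 in vehicle and 16.5 to 19.7 in sham. The 268 CPM was JU replicate 1 and the 114 CPM vehicle replicate 2, the same libraries that were highest in most of the 10 genes. In vehicle against sham all 10 of these markers had positive log2 fold changes, with a median of 1.88. With all libraries 0 were called, where 0.787% of all genes were called higher and 4.24% lower. Without JU replicate 1 5 were called higher, against 17% of all genes. The 8 neutrophil markers summed to 6.45 to 74.3 CPM in JU, 7.96 to 28.9 in JA, 8.63 to 28.8 in UA, 23 to 54.9 in vehicle and 4.05 to 9.49 in sham, and no marker of either list was at 0 in all libraries of a group. The neutrophil markers did not move alike in vehicle against sham: of the 5 that passed the filter, Csf3r was called higher with 3.25 ± 0.84 on the log2 scale (SE), adjusted p = 0.047, while Mmp8 had 4.28 ± 1.77, adjusted p = 0.139, and Ngp 0.02 ± 0.81, S100a8 -0.36 ± 0.88 and S100a9 -0.50 ± 0.76, none of them called. The median of these 5 was 0.025. The 8 T and B cell markers summed to 5.5 to 13.7 CPM in vehicle and 11.8 to 18.2 in sham, and Cd3e and Ms4a1 were at 0 in every sham library. These sums overlapped, and of the 3 T and B cell markers that passed the filter Cd79a had 0.64 ± 0.36, Cd79b 1.74 ± 0.72 and Cd4 -0.90 ± 0.43, with 0 of them called. Neuronal markers summed to 3005 to 7873 CPM in JU, 6576 to 8611 in JA, 7682 to 8032 in UA, 4648 to 6748 in vehicle and 8014 to 8340 in sham. The 3005 CPM was JU replicate 1 and the 4648 CPM vehicle replicate 2. The part of these cells in the levels of the 10 genes was not tested.

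Profiles over the 15 libraries were compared by the root mean square difference of log2 CPM after each gene's own mean was subtracted. The genes with the profile most like that of Myd88 were Stom (0.114), which encodes the membrane protein stomatin, Vasp (0.137), an actin regulator, and Pdgfrb (0.141), a receptor kinase of pericytes. For Tlr7 they were Syk (0.180), a kinase downstream of immune receptors, Dock2 (0.185), a Rac activator of blood cells, and Cd44 (0.186), the hyaluronan receptor. For Tlr4 they were Tnfrsf1a (0.199), a receptor of tumour necrosis factor, Rin3 (0.208) and Npl (0.208). For Cd14 they were Spi1 (0.234), which encodes the factor PU.1, Slc43a3 (0.249) and Fcgr1 (0.261), and for Tlr13 Plek (0.231), Cyba (0.273) and Lcp1 (0.281). For Tlr9 they were Cd86 (0.249), Ikzf1 (0.252) and Csf1r (0.270), the last being among the 12 microglial markers. Tlr6 had Sparc (0.212), Skap2 (0.215) and Ppp1r3b (0.220), Tlr1 had Mgst1 (0.282), Parp12 (0.290) and Gypc (0.291), and Tlr2 had Ptpn6 (0.278), Asb10 (0.302) and Man2b1 (0.337). Tlr3 had no gene nearer than Cyp39a1 (0.439), Cdh11 (0.452) and Smim27 (0.467), the most distant nearest genes of the 10.

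Other genes of the pathway were followed in vehicle against sham. With all libraries 0.787% of all genes were called higher and 4.24% lower. Without JU replicate 1, the setting of many counts here, 17% of all genes were called higher and 16.9% lower. Of the 4 other Toll-like receptors listed, 3 were tested and 0 were called with all libraries. Tlr8, an endosomal RNA sensor next to Tlr7 in the genome, had 28.1, 0.328 and 0.592 CPM in JU, 5.34, 0.565 and 0.663 in JA, 0.166, 0.889 and 0.717 in UA, 2.51, 13.3 and 2.63 in vehicle and 0.158, 0.469 and 0.313 in sham. Its log2 fold change was 4.27 ± 1.64 (SE), adjusted p = 0.118, and without JU replicate 1 Tlr8 was called higher, adjusted p = 0.0111. Tlr5, the flagellin receptor, had 0.921, 0.883 and 0.908 CPM in vehicle and 1.32, 1.04 and 0.835 CPM in sham, a log2 fold change of -0.23 ± 0.36, adjusted p = 0.687. Tlr12 ranged from 0 to 22 counts and Tlr11 from 0 to 5 counts per library, and Tlr11 did not pass the filter.

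Of 8 genes for receptor accessory and trafficking, 7 had higher means in vehicle, with a median log2 fold change of 2.05. 1 was called higher with all libraries and 5 without JU replicate 1. The gene called was Cnpy3, a chaperone of Toll-like receptors, with 69.3, 70.7 and 74.5 CPM in vehicle and 53.7, 60.4 and 61.1 CPM in sham (each in rising order). The Cnpy3 difference was small, 0.29 ± 0.06 on the log2 scale (SE), adjusted p = 0.0231. The call was lost without any 1 of the 6 libraries (adjusted p of 0.0506 to 0.126). It was also lost with the GC offset (0.253), a setting in which 0% of all genes were called. With that offset and without JU replicate 1, where 25% of all genes were called, Cnpy3 had 0.12 ± 0.06 and was not called (0.121). Cnpy3 was also called lower in UA than in vehicle, -0.30 ± 0.06, adjusted p = 0.0275, a call held in 13 of 24 alternatives and lost without any 1 of the 6 libraries (0.0709 to 0.13). In JA against vehicle it had -0.29 ± 0.06, adjusted p = 0.043, a call held in 4 of 24 alternatives. The call in JA was lost without any 1 of the 6 libraries (0.0728 to 0.207) and with no filter (0.0756). It was also lost with the replicate block (0.0867) and with only the groups compared (0.127), where 0% of all genes were called. Unc93b1, which carries the endosomal receptors to endosomes, had 159.5, 14.2 and 43.5 CPM in JU, 49.4, 16.6 and 11.8 in JA, 14.9, 32.7 and 19 in UA, 49.5, 106 and 58.7 in vehicle and 12, 14.8 and 10.9 in sham. Every vehicle library lay above every sham library for Unc93b1, with a log2 fold change of 2.51 ± 0.76, adjusted p = 0.0731, and 2.5 ± 0.61, adjusted p = 0.0119, without JU replicate 1. Ly96, which encodes the MD-2 partner of TLR4, had 1.18, 1.28 and 1.0 CPM in vehicle and 0.895, 0.573 and 0.782 CPM in sham, with a log2 fold change of 0.61 ± 0.73, adjusted p = 0.586.

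Of 5 further adaptors, 0 were called with all libraries and 4 were called higher without JU replicate 1. Ticam2, an adaptor between TLR4 and TRIF, had 3.84, 5.02 and 8.93 CPM in vehicle and 0.474, 0.729 and 0.782 CPM in sham, with a log2 fold change of 3.15 ± 0.90, adjusted p = 0.0617, and 3.14 ± 0.65, adjusted p = 0.00456, without JU replicate 1. Ticam1, which encodes TRIF, had 1.13 ± 0.36, adjusted p = 0.078, and Pik3ap1, a PI3K adaptor, 2.26 ± 0.85, adjusted p = 0.114, and both were called without that library (0.00292 and 0.0145). Of 16 kinases and ubiquitin ligases 0 were called with all libraries, and the median log2 fold change was 0.121. Without JU replicate 1 4 of these 16 were called higher and 3 lower. The higher ones were Ikbke at 2.41 ± 0.60, Irak4 at 1.70 ± 0.41, Ripk1 at 1.09 ± 0.30 and Irak1 at 0.39 ± 0.11, and the lower ones Tab3 at -0.46 ± 0.09, Tbk1 at -0.24 ± 0.07 and Ikbkg at -0.22 ± 0.07. Of 8 transcription factors 0 were called with all libraries and 5 higher without JU replicate 1, with all 8 means higher in vehicle. Irf8, a factor of myeloid cells, had 30.04, 34.8 and 63.9 CPM in vehicle and 4.37, 5.11 and 7.3 CPM in sham, Irf5 had a log2 fold change of 2.40 ± 0.71 and Nfkb2 of 1.89 ± 0.59, with adjusted p of 0.0727, 0.0672 and 0.0764 for Irf8, Irf5 and Nfkb2, and of 0.012, 0.00588 and 0.00271 without JU replicate 1.

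Of 9 inhibitors of the pathway, 8 were tested and 0 were called with all libraries. Without JU replicate 1 3 were called higher and 1 lower. Il1rl1, a receptor that restrains TLR signalling, had 2.99 ± 0.86, adjusted p = 0.0636, with 15 to 37 counts in vehicle and 1 to 4 in sham, and Cyld, a deubiquitinase, had -0.66 ± 0.21, adjusted p = 0.0835. Tnfaip3, which encodes the NF-kB inhibitor A20, had 0.90 ± 0.41, adjusted p = 0.167. Without JU replicate 1 the adjusted p was 0.0202 for Il1rl1, 0.00747 for Cyld and 0.00525 for Tnfaip3. Of 12 target cytokines 8 were tested, all 8 with higher means in vehicle. These were not all apart from sham. Il1b had 0.67, 1.08 and 0.57 CPM in vehicle and 0.47, 0.16 and 0.73 CPM in sham, so its groups overlapped. Il6, Il12b, Cxcl2 and Ifnb1 had 5 counts or fewer in every library. Ccl3, a chemokine of microglia and macrophages, was called higher with all libraries, at 219 to 888 counts in vehicle and 0 to 5 in sham, adjusted p = 0.0451, a call held in 9 of 24 alternatives and lost without any 1 of the 6 libraries (0.067 to 0.155) and with limma voom (0.194). 6 of the 12 were called higher without JU replicate 1. Tnf had 5.25, 0.219 and 0.0493 CPM in JU, 0.755, 0.0514 and 0.0553 in JA, 0, 0.198 and 0.154 in UA, 1.18, 1.18 and 1.29 in vehicle and 0, 0 and 0.0522 in sham, so its sham libraries lay below the floor of detection. Of 8 host-derived ligands 1 was called lower with all libraries, and 4 higher and 1 lower without JU replicate 1. The higher ones were the matrix genes Fn1 at 2.89 ± 0.59, Bgn at 2.45 ± 0.52, Tnc at 0.61 ± 0.19 and Vcan at 0.45 ± 0.13. The lower one in both fits was Hspd1, a mitochondrial chaperone named as a TLR ligand, with 122, 137 and 137 CPM in vehicle and 170.3, 174 and 196 CPM in sham. Its log2 fold change was -0.45 ± 0.08, adjusted p = 0.0112, a call held in 20 of 24 alternatives. The call was lost without sham replicate 3 (0.0839) and without vehicle replicate 2 (0.0602). It was also lost with the GC offset (0.188, and 0.224 with the replicate block too), where 0% of all genes were called with the offset alone. With the offset and without JU replicate 1, where 25% of all genes were called, Hspd1 was called (0.012). Hspd1 was called higher in UA than in vehicle, 0.36 ± 0.08, adjusted p = 0.0283, in 15 of 24 alternatives, and lost without any 1 of the 6 libraries (0.0572 to 0.125). In JA against vehicle it had 0.35 ± 0.08, adjusted p = 0.0457, a call held in 3 of 24 alternatives. That call was lost without any 1 of the 6 libraries (0.0774 to 0.198), with another scaling (0.057) and with no filter (0.076). It was also lost with the replicate block (0.0954) and with only the groups compared (0.127), settings in which 0% of all genes were called.

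**Figure D5:**
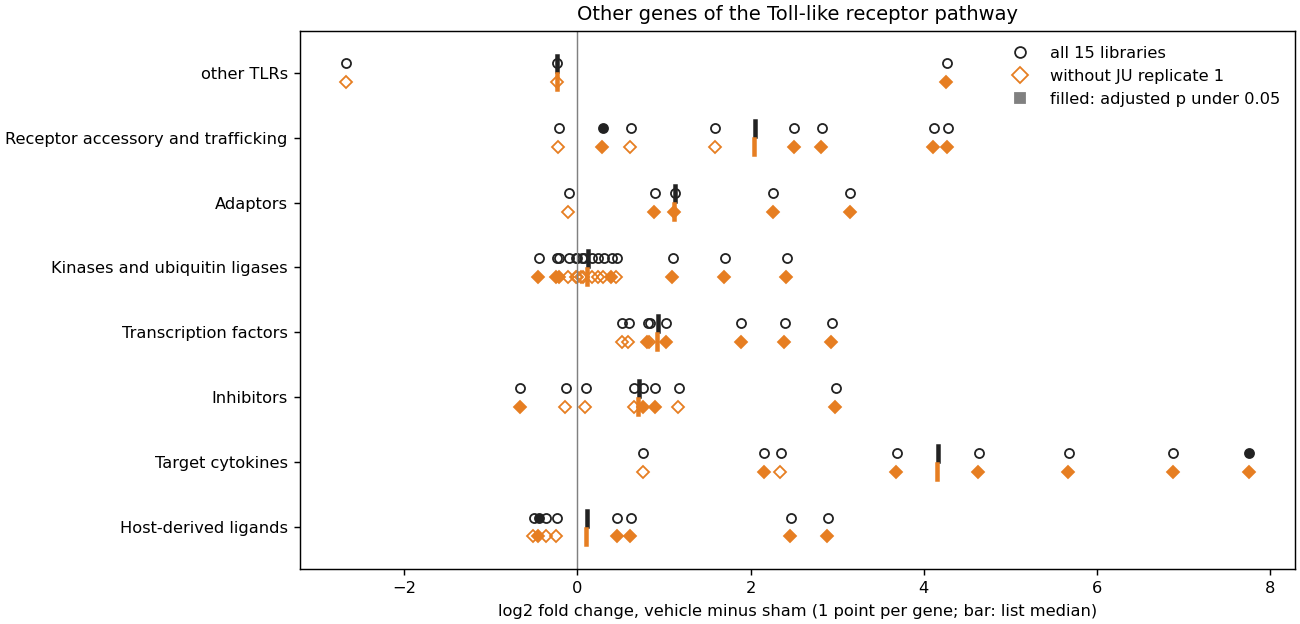
Log2 fold change of vehicle against sham for each tested gene of 8 lists of the Toll-like receptor pathway, with all 15 libraries (circles) and without JU replicate 1 (diamonds), filled where the adjusted p was under 0.05, and a bar at each list's median. 3 circles are filled, Cnpy3 at 0.29, Ccl3 at 7.76 and Hspd1 at -0.45, and the list of kinases and ubiquitin ligases has its median at 0.121.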

How the data were processed

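Per the file headers, the authors' deposited table holds raw whole-number counts and, computed by the authors, FPKM values, which are scaled by transcript length and depth. The library kit was TruSeq Stranded mRNA, per the labels' protocols. Trimmomatic, HISAT2, Cufflinks and DESeq and the build GRCm38 (mm10) are named, without roles, per the submitters' processing notes. Which program counted the reads, with what strand setting and annotation, is not given in the sources used here. 1 count column, whose header also begins with JU, matched no sample's labels and was not used.

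Groups and replicate numbers came from the titles, and counts of libraries within a group differed by more than sampling noise (5.02 or more as chi-square per degree of freedom). The 10 genes and all lists were chosen with earlier results of these data known. Counts were fitted in R 4.3.3 with edgeR 4.0.16 (filterByExpr, TMM factors of 0.975 to 1.03, robust quasi-likelihood test, a term per group, 15 libraries, 10 residual degrees of freedom). The biological coefficient of variation was 27.1%. The SE was taken from F as the size of the log2 fold change over root F. Log2 CPM used a prior count of 2. The test was checked on simulated counts drawn from the sham means, in which no library stood apart as JU replicate 1 did. DESeq2 1.42.0, limma 3.58.1 voom, another scaling, no filter, only the groups compared, a GC offset (lowess span 0.3), the replicate number as a block and leaving out each library were tried. Floors cover counting error only.

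Replicate numbers are in the titles, which do not say what they mark. In several groups the sample codes in the titles carry other numbers, so equal replicate numbers are not shown to mark a shared block. The deviations from the group means correlated between same-numbered JU and JA libraries (0.701, 0.387 and 0.422 for the 3 numbers). These correlations rest on 3 libraries per group, JU replicate 1 among them. In JU against JA 0% of all genes were called with or without the block, so it had no call there to change. Elsewhere the block lowered the share of all genes called. It went from 5.02% to 2.53% in vehicle against sham and from 3.47% to 1.26% in UA against vehicle. In JA against vehicle it went from 1.56% to 0%, and in JU against UA from 1.08% to 0%. Coordinates and exons came from GENCODE for GRCm38, which matched 18532 of the 18931 genes. All 10 genes were named whatever their values. From each pathway list the genes called with all libraries were named, or else the 3 with the smallest p in vehicle against sham. Beyond that rule, the kinases, ubiquitin ligases and host-derived ligands called only without JU replicate 1 were named as well. In several other lists not every gene called only in that fit was named. Profile likeness used genes with a mean of at least 1 CPM. Acaa1a, Unc93b1, Ly96, Tnf, Il1b, Il6, Il12b, Cxcl2 and Ifnb1 were named after their values were seen.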

Additional observations from a re-analysis of the deposited data

How the results depend on the processing

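The number of calls moved with single JU libraries and with the choice of fit. In vehicle against sham, 0 of the 10 genes were called with all libraries, 5 with DESeq2, 8 with only the groups compared, 8 with a GC offset without JU replicate 1, and 0 to 8 when 1 library was left out (8 without JU replicate 1, 3 without JU replicate 2). In UA against vehicle the count was 0 with all libraries, 3 with only the groups compared, 2 with a GC offset without JU replicate 1, and 0 to 1 when 1 library was left out. In JU against UA it was 0 to 7 when 1 library was left out, with 7 without JU replicate 2 and 0 without JU replicate 1. With the GC offset and all libraries 0 of the 10 and 0% of all genes were called in every comparison. With the replicate block 0 of the 10 were called in every comparison. Of all genes, the block left 2.53% called in vehicle against sham, 1.26% in UA against vehicle and 0% in each other comparison. The correlations between same-numbered libraries ran from -0.726 to 0.484 outside JU against JA. Of 1440 alternative values of single genes, 1343 kept their direction and their side of the threshold. As 0 of the 10 were called with all libraries, that side was always not called. Settings that call 0% of all genes could not change it. In vehicle against sham 32 of 240 values crossed to called, and in JU against vehicle 34 of 240 reversed direction. The labels' groups of 3 and the spread of the JU libraries limit the precision.

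In JU against vehicle the sign turned negative under voom for Tlr2 (-0.48), Tlr4 (-0.24), Tlr7 (-0.43), Tlr13 (-0.86), Cd14 (-0.51) and Myd88 (-0.0032). It did so under the replicate block for Tlr7 (-0.15), Tlr13 (-0.32) and Cd14 (-0.0485), and under the GC offset with the block for Tlr7 (-0.18), Tlr13 (-0.36) and Cd14 (-0.0487). With the GC offset and without JU replicate 1 it was negative for Tlr1 (-0.64), Tlr2 (-1.43), Tlr4 (-1.40), Tlr7 (-1.71), Tlr13 (-2.50), Cd14 (-1.57) and Myd88 (-0.82). Under that same setting JU against JA turned negative for Tlr4 (-0.0741), Tlr7 (-0.26), Tlr13 (-0.75) and Myd88 (-0.13), and JU against UA for Tlr6 (-0.15) and Tlr13 (-0.0273). Tlr3 in JA against vehicle was -0.0196 with the GC offset, -0.0199 with it and without JU replicate 1, and -0.0425 with it and the block. The cause was not tested.

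Leaving out 1 library at a time moved the JU against vehicle value of Tlr1 between -0.64 and 0.75, Tlr2 between -1.45 and 0.92, Tlr3 between -0.78 and 0.40, Tlr4 between -1.39 and 1.13, Tlr6 between -0.97 and 0.38, Tlr7 between -1.70 and 1.04, Tlr9 between -0.96 and 0.40, Tlr13 between -2.49 and 1.39, Cd14 between -1.60 and 0.95 and Myd88 between -0.85 and 0.80, with each lowest value without JU replicate 1. In JU against JA the range was -1.003 to 0.17 for Tlr3, -0.33 to 2.45 for Tlr4, -0.49 to 2.82 for Tlr7, -0.91 to 3.81 for Tlr13 and -0.0426 to 1.6 for Myd88. In JU against UA it was -0.0317 to 2.45 for Tlr4, -0.28 to 1.06 for Tlr6 and -0.21 to 3.39 for Tlr13, and in JA against vehicle it was -0.0255 to 0.43 for Tlr3.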

Other observations

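The make-up of the family, as each gene's share of the summed FPKM of the 10 genes, differed between the groups in several genes. Cd14 held 29.7, 31.7 and 32.8% of the sum in vehicle and 17.8, 18.9 and 19.02% in sham, in rising order. Tlr13 held 14.6 to 20.8% in vehicle and 8.34 to 10.9% in sham. Tlr3 held 3.09 to 5.24% in vehicle and 14.1 to 15.3% in sham, and Tlr1 held 5.67 to 8.97% in vehicle and 14.04 to 16.7% in sham. Tlr4 held 2.08 to 2.13% in vehicle and 2.44 to 2.93% in sham. Shares sum to a whole within a library, so a higher share of Cd14 lowers the others. The summed FPKM was 164, 10.8 and 26.5 in JU, 35.5, 13.7 and 9.64 in JA, 14.7, 25.8 and 15.7 in UA, 32.8, 83 and 39.4 in vehicle, and 11.2, 11.9 and 11.9 in sham, for replicates 1, 2 and 3 in turn. No test was made of these shares.

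Among pairs of the 10 genes, the profiles over the 15 libraries were nearest for Tlr4 and Tlr7, with a root mean square difference of 0.329 on the log2 scale, then Tlr6 and Myd88 with 0.338, and Tlr2 and Cd14 with 0.365. The most distant were Tlr3 and Tlr13 with 1.47, and Tlr2 and Tlr3 with 1.43. These are descriptions of 15 libraries that share the variation of JU replicate 1.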
